A study of Mus musculus with 13 samples.

Results

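The comparison described here sets the 3 shSLX1 round spermatid preparations against the 4 WT preparations of a series of 13 Illumina mouse BeadChip arrays, 1 array per preparation. Members were taken from the sample titles, so that 3 shSLX1 and 4 WT arrays entered out of 13, beside 3 shSLX1shSLY and 3 shSLY arrays that serve here only to estimate the spread and for values side by side. shSLX1 males carried a transgene that expresses a short hairpin RNA against Slx and Slxl1, which the study used to deplete these multicopy X-linked genes, and WT males carried no transgene. All groups had the MF1 YRIII background and an age of about 8 weeks. Spermatids were separated by elutriation or by sedimentation, and several testes were pooled for each preparation. The shSLX1 group stands for a single transgenic construct, and the labels do not say whether its arrays come from 1 founder line.

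Round spermatids are the haploid cells that follow meiosis, before the head condenses and the tail grows. Slx and Slxl1 on the X chromosome and Sly on the Y chromosome are related multicopy genes that are read in these cells and are known for opposite effects on the expression of sex-linked genes after meiosis. In the mouse the X and Y chromosomes remain largely repressed in round spermatids, while genes for the acrosome, the flagellum and nuclear condensation are highly expressed.

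Between 16432 and 17842 of 45281 probes were detected on the shSLX1 arrays, and between 16110 and 18251 on the WT arrays. A probe counts as detected where its signal stood above the negative control beads with a detection p under 0.05. Pairs of arrays correlated at 0.977 to 0.988 within shSLX1 and at 0.987 to 0.996 within WT. The arrays were clustered by the signals of probes detected on no array, and the clustering was cut into 3 array sets. shSLX1 1 and 2 shared a set with WT 3 and 4, while shSLX1 3 fell into a set with shSLY 3 and the 3 shSLX1shSLY arrays and with no WT array. WT 1 and 2 shared the remaining set with shSLY 1 and 2. Results are therefore also given for shSLX1 1 and 2 against WT 3 and 4, inside 1 set. On these signals the arrays of that set correlated at 0.441 to 0.49 with each other. With the set of WT 1 and 2 they correlated at 0.462 to 0.553, so these sets were not clearly apart. The labels do not say whether preparations came from separate animals within a group, so p-values measure the spread between these preparations.

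The targeted genes could not be read directly, since no probe was annotated to Slx or Slxl1. The nearest that the annotation gives is Gm14525, an X-linked gene that stands next to Slx in RefSeq order. Its promoter window was 94.1% identical to that of Slx over 270 aligned columns, against 83.7% between Slx and Slxl1. A stretch of 160 bases of each is shown because the reading of the knockdown turns on this likeness. It covers chrX:26545526-26545685 for Slx and chrX:26702630-26702789 for Gm14525, both on the minus strand of GRCm38.p6, from RefSeq. Capitals mark the 7 positions at which they differ.
Slx: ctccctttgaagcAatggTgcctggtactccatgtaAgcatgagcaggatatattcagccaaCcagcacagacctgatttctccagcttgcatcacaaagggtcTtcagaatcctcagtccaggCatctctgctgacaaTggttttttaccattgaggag
Gm14525: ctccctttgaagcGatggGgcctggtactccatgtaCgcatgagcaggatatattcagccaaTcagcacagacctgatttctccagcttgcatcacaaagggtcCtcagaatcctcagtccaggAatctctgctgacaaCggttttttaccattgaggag
Gm14525 had a log2 intensity of 8.48, 7.93 and 9.08 on the shSLX1 arrays, against 9.52, 9.53, 9.39 and 9.40 on the WT arrays. All shSLX1 arrays lay below all WT arrays, but the difference of -0.96 ± 0.27 on the log2 scale (SE) was not called over all arrays (limma adjusted p = 0.118). Inside the set the difference was -1.19, and it was called (adjusted p = 0.0132). The probes of Gm5168 and Gm5935, X-linked genes of the same region that were picked for their place beside Slx, differed by -1.13 ± 0.29 and -0.90 ± 0.24 with adjusted p of 0.0682 and 0.0969. Gm14594, another X-linked gene picked in the same way, differed by -1.21 ± 0.22 and was called over all arrays (adjusted p = 0.00643) and inside the set (-1.24, adjusted p = 0.043). No source used here says whether any of these probes reads a transcript that the hairpin targets, so they do not check the labels.
The only probe of Sly, the Y-linked relative, had 9.22, 8.65 and 10.21 on the shSLX1 arrays, against 10.19, 10.35, 9.86 and 9.85 on the WT arrays. shSLX1 3 lay within the WT range and the other shSLX1 arrays below it. The difference was -0.70 ± 0.28 over all arrays (adjusted p = 0.329) and -0.92 inside the set (adjusted p = 0.0331). The log2 ratio of this probe to WT was 0.33 in shSLY and 0.37 in shSLX1shSLY. Both lines carry a hairpin against Sly, and the probe did not read lower in them. Whether the probe follows the level of the Sly transcript is therefore not known, and its values do not show that Sly fell in shSLX1.

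Most of the genes that differed in shSLX1 spermatids were higher. Of 14660 genes tested, 261 were called, which is 1.78%. Calls needed a change of more than 1.5-fold together with a limma p below 0.05 after Benjamini-Hochberg adjustment across the whole table. The called genes comprised 245 higher genes, or 1.67% of those tested, and 16 lower genes, or 0.109%. The higher genes had a median change of 2.07-fold, 133 of them changed over 2-fold and 15 over 4-fold. Among the lower genes 4 changed over 2-fold and 0 over 4-fold. At an unadjusted p under 0.05 and the same fold, 416 genes were higher and 153 lower. With median scaling in place of quantile normalization 90 genes were higher and 20 lower, on a scale on which the median of all genes moved to -0.27 from -0.02.

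The rising genes were mostly dim in WT, and most of them were nevertheless detected there. Their median log2 intensity was 7.03 in shSLX1 and 5.62 in WT, where the median of all genes tested was 6.66. All 4 WT arrays detected 149 of the 245 rising genes, or 60.8%, against 74.7% of all genes tested. Another 23, 17 and 16 were detected on 3, 2 and 1 of the WT arrays. No WT array detected 40 rising genes, or 16.3%, against 5% of all genes tested. Since a gene needed detection on only 3 of the 13 arrays, a gene undetected in WT entered the test through other arrays, so these shares describe the genes and are not a test. With a detection p under 0.01 the number that no WT array detected was 67.

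**Figure D1:**
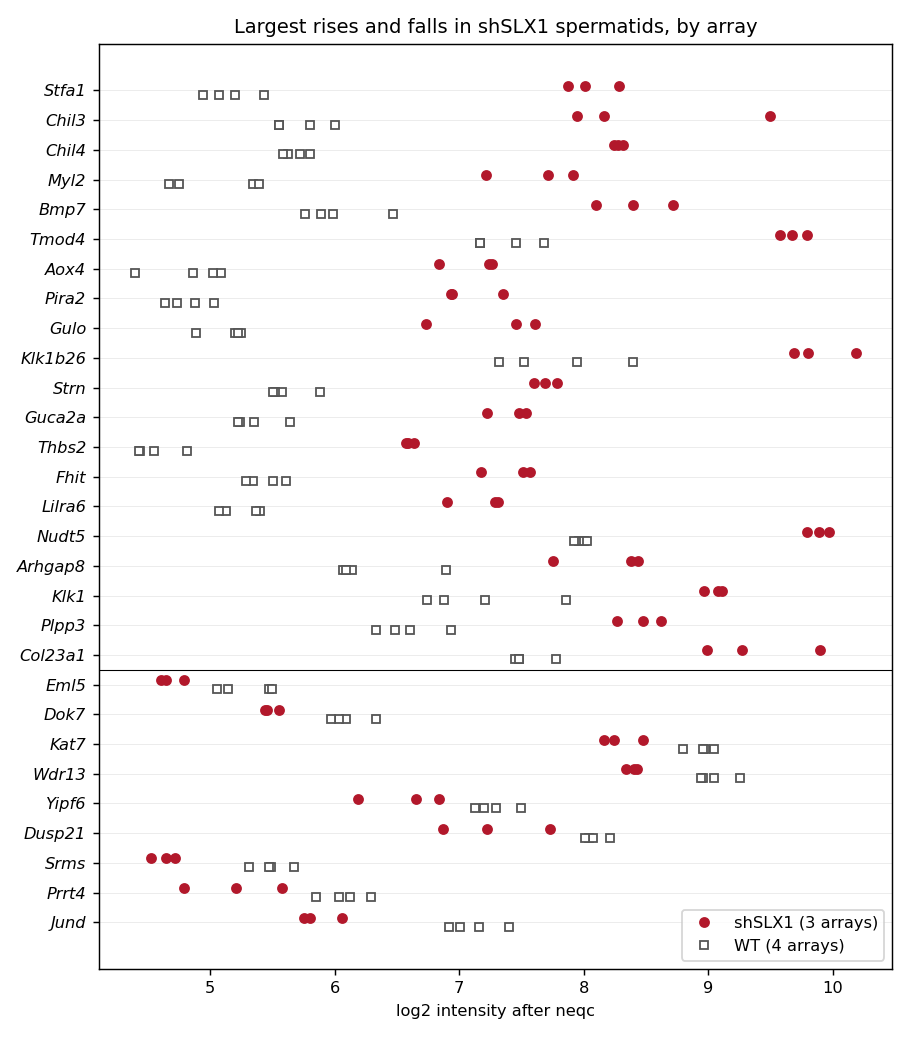
Log2 intensity after neqc on each array for the 20 largest rises and the 9 falls with a usual gene name, with shSLX1 arrays as filled circles and WT arrays as open squares. For each gene the shSLX1 arrays lie wholly above or wholly below the WT arrays, as with Stfa1 at 7.88 to 8.29 on shSLX1 and 4.94 to 5.44 on WT.

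Each of the 193 rising genes with a gene name was sorted by its textbook role where that was clear, after the values were known, and 148 fell into 16 classes. The other 45 named genes and 52 probes without a gene name were left unsorted. Only rising genes were sorted, so the number of all tested genes with each role was not counted. The size of a class therefore does not show that its role is more frequent among the rises than among all genes. The largest class was immune defence and inflammation with 25 genes, followed by intermediary and lipid metabolism with 16, cytoskeleton and membrane traffic with 14, neurons and neuroendocrine signalling with 13, cell signalling with 12, and liver and plasma proteins with 10. Of the immune genes 3 were detected on no WT array and 15 on all of them. Of the 8 genes of secretory epithelium 4 were detected on no WT array and 2 on all of them.

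**Figure D2:**
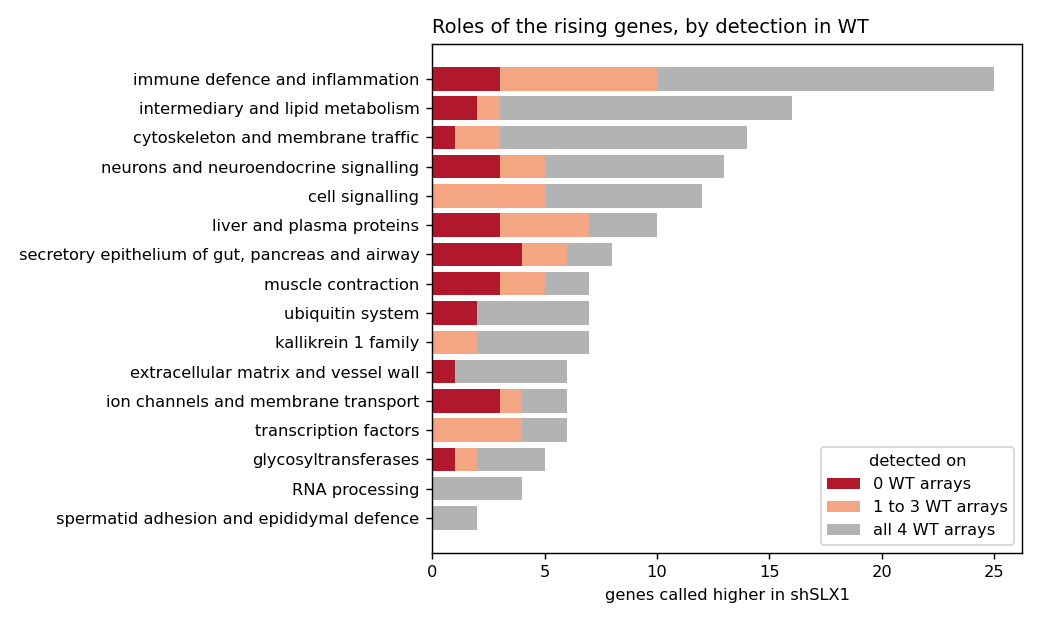
Number of genes called higher in shSLX1 spermatids in each of 16 role classes assigned by hand after the values were known. Colours give the number of WT arrays that detected the gene, and the longest bar holds 25 immune genes, 15 of them detected on all 4 WT arrays. Only rising genes were sorted, so no count over all tested genes stands beside the bars.

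Genes best known from neutrophils and macrophages headed the list. Stfa1, a stefin that inhibits cysteine proteases, had a log2 intensity of 7.88, 8.29 and 8.01 in shSLX1, against 5.20, 5.44, 4.94 and 5.07 in WT. It rose 7.44-fold (2.90 ± 0.18 log2, SE, adjusted p = 7.08e-07) and was detected on 3 of the 4 WT arrays. A second kept probe of Stfa1 rose by 3.07 on the log2 scale.
Chil3, a chitinase-like lectin, had 7.94, 8.16 and 9.50 in shSLX1, against 5.80, 6.01, 5.55 and 5.55 in WT, a 7.0-fold rise (adjusted p = 9.73e-05). shSLX1 3 was the highest array for Chil3. Its paralog Chil4 had 8.24, 8.28 and 8.32 in shSLX1, against 5.72, 5.62, 5.59 and 5.80 in WT, a 6.04-fold rise (adjusted p = 6.61e-07). All 4 WT arrays detected both genes. Chil3 and Chil4 are neighbours with promoter windows that were 91.9% identical over 273 columns, and the transcripts of such close copies may not be told apart by an array probe.
The stretches around their start sites are shown because the pair rose together, Chil3 at chr3:106167515-106167634 and Chil4 at chr3:106219458-106219578, both on the minus strand of GRCm38.p6, from RefSeq. Capitals mark TATAAA.
Chil3: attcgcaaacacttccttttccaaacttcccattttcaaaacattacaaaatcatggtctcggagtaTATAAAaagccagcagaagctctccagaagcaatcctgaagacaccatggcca
Chil4: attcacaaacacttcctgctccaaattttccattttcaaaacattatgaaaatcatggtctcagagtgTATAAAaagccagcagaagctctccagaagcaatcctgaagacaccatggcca
Of 32817 promoter windows of 300 bases in the table, 13.6% held TATAAA on either strand.

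Receptors and signals of immune cells rose beside them. Pira2, a paired immunoglobulin-like receptor of myeloid cells, had 6.93, 7.35 and 6.94 in shSLX1, against 5.03, 4.88, 4.64 and 4.74 in WT, and rose 4.77-fold (adjusted p = 7.08e-07). Lilra6, its neighbour on chromosome 7, had 6.90, 7.29 and 7.31 in shSLX1, against 5.13, 5.40, 5.07 and 5.37 in WT, and rose 3.80-fold (adjusted p = 0.00135). The arrays of the groups did not overlap for either gene. The pyroptosis effector Gsdmd rose 3.35-fold, the B cell survival factor Tnfsf13b 2.87-fold, the DNA sensor Cgas 2.90-fold and the siderophore-binding lipocalin Lcn2 2.31-fold. The chemokines Ccl5, Ccl4 and Ccl17 rose 2.72-fold, 2.30-fold and 2.28-fold. Of these, Cgas and Ccl4 were not called inside the set. Cgas had similar levels in the double line, with 7.26, 7.0 and 8.32 on the shSLX1 arrays beside 7.24, 7.43 and 8.26 on the shSLX1shSLY arrays, against 5.72, 5.73, 6.39 and 6.13 in WT.
A list of 26 neutrophil markers had 7 members tested, of which Stfa1, Chil3 and Lcn2 rose and none fell, with a median log2 change of 0.38 against -0.02 for all genes. Its summed intensity was 819 to 1266 in shSLX1 and 316 to 347 in WT. This sum is on the linear scale, and Stfa1, Chil3 and Lcn2 made up most of it in shSLX1. It therefore restates the rise of these genes and does not show a rise across the list. Of its members 13 were detected on no shSLX1 or WT array, among them the abundant granule genes S100a8, S100a9, Ltf and Ngp. Mpo, the myeloperoxidase of neutrophil granules, was detected on every array of both groups and had 6.46, 6.28 and 5.93 in shSLX1, against 6.55, 6.15, 6.29 and 6.34 in WT (-0.11 ± 0.20, adjusted p = 0.863). Of 24 macrophage markers 15 were tested and 0 were called, with a median of 0.26 and a summed intensity of 6360 to 7075 in shSLX1 and 5251 to 6704 in WT. In bulk RNA of this kind, more cells of a type and more RNA per cell cannot be told apart.

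Contractile genes of heart and skeletal muscle formed a smaller group with large changes. Myl2, the regulatory light chain of ventricular myosin, had 7.71, 7.92 and 7.22 in shSLX1, against 5.35, 5.39, 4.75 and 4.67 in WT, and rose 5.95-fold (adjusted p = 6.41e-06). It was detected on all 3 shSLX1 arrays and on 2 of the WT arrays. Tmod4, which caps actin filaments of skeletal muscle, had 9.58, 9.67 and 9.79 in shSLX1, against 7.45, 7.68, 7.16 and 7.17 in WT, and rose 4.98-fold (adjusted p = 9.31e-06). The groups lay far apart, and the other kept probes of Tmod4 rose by 2.28 and 2.19 on the log2 scale.
Myl3, an essential light chain of heart and slow muscle, was detected on all shSLX1 arrays and on no WT array, and was at least 2.93-fold higher (adjusted p = 5.99e-05). Such a bound sets the shSLX1 mean against the lowest detected signal of each WT array. Smooth muscle myosin Myh11 was at least 1.95-fold higher and the heart LIM protein Fhl2 at least 1.86-fold, again with no WT array detecting them. Myh11 was no longer called without background correction. Sln, which regulates the calcium pump of the sarcoplasmic reticulum, rose 2.79-fold, and the M-band protein Myom1 rose 1.78-fold.
Of 47 markers of skeletal and heart muscle, 22 were tested and 3 rose (Myl2, Myl3 and Sln), with a median of 0.24 and a summed intensity of 5349 to 5675 in shSLX1 and 3988 to 4741 in WT. Acta1, Ckm, Myh1, Myh4, Tnnt3 and Tnni2, defining genes of muscle fibres, were among the 19 that no shSLX1 or WT array detected. Of 22 markers of myoid and smooth muscle cells 11 were tested, 1 (Myh11) rose and the median was -0.07. Acta2, the smooth muscle actin, had 6.81, 6.79 and 7.52 in shSLX1, against 5.99, 6.38, 5.51 and 5.39 in WT, and was not called (adjusted p = 0.138).

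The class of liver and plasma proteins was sorted by hand from the rises, and lists of such functions moved little as a whole. Of 11 tested genes of complement and acute phase 2 rose, Ambp and Lcn2, with a median of 0.24, while Alb, Ttr, Fga, Fgb, Hp and Hpx were detected on no shSLX1 or WT array. Of 58 tested redox, vitamin and xenobiotic enzymes 3 rose, Aox4, Cyp2a12 and Gulo, with a median of -0.01. Gulo, which catalyses the last step of vitamin C synthesis in mouse liver, had 6.74, 7.46 and 7.61 in shSLX1, against 5.20, 5.25, 4.89 and 5.22 in WT, and rose 4.37-fold (adjusted p = 4.32e-05). Serpina1b and Serpina1d, alpha-1 antitrypsins of plasma, rose 3.47-fold and 2.89-fold, and Serpina1f, of the same cluster on chromosome 12, was at least 1.67-fold higher. Serpina1b had 7.66, 8.76 and 7.11 in shSLX1, against 5.61, 5.90, 6.57 and 6.09 in WT, which is a wide spread within both groups (adjusted p = 0.0145). Hgfac, the protease that activates hepatocyte growth factor, was detected on no WT array and at least 2.67-fold higher. Coagulation factor F10 rose 2.63-fold and Ambp, the precursor of alpha-1 microglobulin, 2.50-fold. Cyp2a12 was already bright in WT, at 9.99, 10.18, 9.25 and 9.24, and had 10.70, 10.72 and 10.54 in shSLX1, a 1.98-fold rise (adjusted p = 0.0458). This call was near the threshold and was lost under several alternatives, among them median scaling and leaving out WT 3, WT 4 or any shSLX1 array.

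Secreted products of gut, pancreas and airway were largely dim in WT, where 4 of the 8 were undetected. Guca2a encodes guanylin, the ligand of the guanylate cyclase of intestinal epithelium. It had 7.22, 7.48 and 7.54 in shSLX1, against 5.35, 5.24, 5.23 and 5.64 in WT, and rose 4.14-fold (adjusted p = 2.84e-06) with detection on all 4 WT arrays. The gel-forming mucins Muc2 and Muc5ac are neighbours on chromosome 7. Muc2 rose 2.22-fold and was detected on 3 WT arrays, while Muc5ac was detected on none and was at least 1.71-fold higher. The trefoil peptide Tff2 rose 2.48-fold and pancreatic elastase Cela2a 2.23-fold. Bpifb1 of the airway was at least 1.97-fold higher, pancreatic colipase Clps at least 1.61-fold and the mucosal scavenger protein Dmbt1 at least 1.56-fold. Of 19 genes for guanylins and guanylate cyclases 9 were tested and 2 rose, Guca2a and the soluble cyclase subunit Gucy1a1, which rose 2.27-fold with 6.94, 6.99 and 7.12 in shSLX1, against 5.87, 5.83, 5.84 and 5.80 in WT. Dimmer kept probes of Gucy1a1, with means of 5.47 and 5.13 in shSLX1, did not pass the test and changed by 0.01 and 0.02 on the log2 scale.

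Tissue kallikreins, secreted serine proteases that lie side by side on chromosome 7, rose together, and some of them were bright. Of 25 kallikrein genes 12 were tested and 6 rose (Klk1, Klk1b5, Klk1b9, Klk1b21, Klk1b26 and Klk1b27), with a median log2 change of 1.01 against -0.02 for all genes. Klk1b26 had 10.19, 9.68 and 9.80 in shSLX1, against 7.94, 8.39, 7.52 and 7.32 in WT, and rose 4.28-fold (adjusted p = 0.000492). Klk1b5 had 10.83, 10.72 and 10.79 in shSLX1, against 9.04, 9.64, 8.76 and 8.49 in WT, and rose 3.47-fold (adjusted p = 0.00058), and its other kept probes rose by 1.81 and 1.96 on the log2 scale. WT 2 was the highest WT array for both genes and WT 4 the lowest.
Klk1 rose 3.67-fold, Klk1b9 2.32-fold, and Egfbp2, another kallikrein, 2.45-fold. Klk1b27 and Klk1b21 rose 3.07-fold and 2.46-fold, and they are also counted among Leydig cell markers. Of 22 Leydig cell markers 8 were tested and 3 rose, Klk1b27, Klk1b21 and Cyp2a12, with a median of 0.33 and a summed intensity of 1945 to 2142 in shSLX1 and 885 to 1469 in WT. Cyp2a12, whose call was near the threshold, made up most of this linear sum in both groups. The sum therefore does not show a rise across the list. Star, Hsd3b1, Hsd3b6 and Hsd17b3, which define steroid synthesis in these cells, were detected on no array of either group.
The kallikrein genes are close copies whose transcripts may cross-hybridise. Stretches of 3 promoters are shown to let this likeness be seen, Klk1b26 at chr7:44012602-44012711, Klk1b5 at chr7:44216382-44216491 and Klk1b9 at chr7:43975978-43976087, all on the plus strand of GRCm38.p6, from RefSeq. Their full windows were 85.0% to 87.0% identical in pairs. Capitals mark TTTAAA.
Klk1b26: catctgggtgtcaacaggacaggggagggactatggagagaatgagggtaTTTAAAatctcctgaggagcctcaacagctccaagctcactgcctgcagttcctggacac
Klk1b5: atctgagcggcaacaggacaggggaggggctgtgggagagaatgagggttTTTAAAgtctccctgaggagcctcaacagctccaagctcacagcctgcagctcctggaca
Klk1b9: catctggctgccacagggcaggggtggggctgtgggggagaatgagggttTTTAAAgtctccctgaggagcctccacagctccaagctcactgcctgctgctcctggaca
TTTAAA, which reads the same on both strands, was present in 13.2% of all windows of 300 bases.

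Matrix and vessel wall genes included the brightest of the genes undetected in WT. Thbs2, the matricellular protein thrombospondin 2, had 6.59, 6.63 and 6.57 in shSLX1, against 4.44, 4.55, 4.81 and 4.43 in WT, where no array detected it. It was at least 3.18-fold higher (adjusted p = 1.23e-06), the highest bound of the 40 rising genes that no WT array detected. The transmembrane collagen Col23a1 rose 3.57-fold, with 9.27, 9.89 and 8.99 in shSLX1, against 7.48, 7.78, 7.45 and 7.48 in WT. Basement membrane collagen Col4a2 rose 3.03-fold, the adhesion protein Tgfbi 2.97-fold and von Willebrand factor Vwf of endothelium 1.81-fold, a call that was lost with median scaling and without WT 3, WT 4 or shSLX1 2. Of 38 fibroblast and matrix markers 21 were tested and 2 rose, Col4a2 and Thbs2, with a median of 0.18 and a summed intensity of 1993 to 2166.5 in shSLX1 and 1400 to 2053 in WT. Col1a1, Col1a2 and Postn were among the 13 that no array of these groups detected.

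Of the rises sorted as metabolism 13 of 16 were detected on all 4 WT arrays, and of those sorted as signalling 7 of 12. Bmp7, a bone morphogenetic protein, had 8.40, 8.71 and 8.10 in shSLX1, against 5.99, 6.47, 5.89 and 5.76 in WT, and rose 5.19-fold (adjusted p = 6.96e-06). It was the only called gene among 24 tested members of a list of 55 BMP and TGF-beta genes, whose median was -0.05. Aox4, an aldehyde oxidase, had 6.84, 7.24 and 7.27 in shSLX1, against 5.09, 5.02, 4.86 and 4.40 in WT, and rose 4.83-fold (adjusted p = 3.81e-05), with detection on 2 of the WT arrays. Nudt5, which cleaves ADP-ribose, had 9.79, 9.89 and 9.97 in shSLX1, against 7.96, 7.92, 8.00 and 8.03 in WT, and rose 3.75-fold (adjusted p = 6.96e-06). The WT arrays of Nudt5 lay within a narrow range far below the shSLX1 arrays. A dimmer kept probe of Nudt5 changed by 0.27 and was not called (adjusted p = 0.681).
The nucleotide hydrolase Fhit rose 3.95-fold and the lipid phosphatase Plpp3 3.64-fold. Acsl5, which activates fatty acids, was bright in both groups, with 11.11, 11.44 and 11.56 in shSLX1, against 10.17, 10.34, 10.15 and 10.16 in WT, a 2.24-fold rise. The fatty acid receptor Ffar4 rose 3.47-fold, the kinase Camk1 3.38-fold and beta-arrestin Arrb2 3.13-fold. Strn, the scaffold protein striatin, had 7.60, 7.69 and 7.79 in shSLX1, against 5.58, 5.88, 5.52 and 5.50 in WT, and rose 4.21-fold (adjusted p = 5.62e-05). The actin crosslinker Actn4 rose 2.36-fold.
ND5, a mitochondrial subunit of respiratory complex I, rose 2.61-fold, with 7.90, 7.19 and 7.94 in shSLX1, against 6.22, 6.10, 6.68 and 6.17 in WT. It was 1 of 7 mitochondrial genes tested and was not called inside the set, while 0 of 70 tested genes of oxidative phosphorylation were called.

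Neuronal and neuroendocrine genes had smaller changes. The pituitary receptor Gnrhr rose 2.67-fold, the amine synthesis enzyme Ddc 2.72-fold, peripherin (Prph) 2.30-fold and kisspeptin (Kiss1) 1.85-fold. The call of Prph was lost with median scaling and without WT 1, WT 3, WT 4, shSLX1 1 or shSLX1 2. The melanin-concentrating hormone precursor Pmch was at least 1.51-fold higher and the neurotensin receptor Ntsr1 at least 1.45-fold, both undetected in WT. Rbfox3, the neuronal nuclear antigen, was at least 1.25-fold higher. The class had 13 genes with a median log2 change of 0.90.

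A gene of known importance in spermatids was among the rises. Fndc3a, which is required in mouse for the adhesion of spermatids to Sertoli cells, had 9.28, 9.27 and 9.30 in shSLX1, against 7.73, 8.00, 7.86 and 7.72 in WT. The 3 shSLX1 arrays nearly coincided, and the rise was 2.74-fold (1.46 ± 0.16 log2, SE, adjusted p = 9.73e-05). A dimmer kept probe of Fndc3a, detected on 1 shSLX1 array and on no WT array, changed by -0.02. Defb21, a beta-defensin known from epididymal epithelium, rose 3.08-fold, with 9.11, 9.18 and 8.94 in shSLX1, against 7.53, 7.79, 7.20 and 7.31 in WT. Of the ubiquitin system Rnf170 rose 1.91-fold, Ube2g2 1.76-fold and Usp3 2.21-fold.

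Of the 40 rising genes that no WT array detected, 38 were detected on all 3 shSLX1 arrays and the other 2 on 2 of them. Their lower bounds of the fold ran from 1.22 to 3.18 with a median of 1.62. In 32 cases at least 1 shSLY or shSLX1shSLY array detected the gene. The 8 genes detected on shSLX1 arrays alone were Abcb1b, Accs, Asb18, Cstdc5, Fbxw20, Gpr18, Kcne1 and Rbfox3. A gene needed detection on 3 arrays to be tested, so these 8 could enter only through detection on all 3 shSLX1 arrays. Their detection on all 3 was therefore set by the filter and is no separate result. These 8 are among the 38, so the filter also sets part of that count. Abcb1b, an efflux pump, had 5.77, 5.81 and 5.77 in shSLX1, against 4.52, 4.48, 4.37 and 4.52 in WT. Cstdc5, a stefin beside Stfa1, had 5.06, 5.08 and 6.19 in shSLX1, against 4.51, 4.52, 4.49 and 4.45 in WT, so that shSLX1 3 stood apart from the other shSLX1 arrays. The brightest named genes of the 40 in shSLX1 were Thbs2, Myl3, Hgfac, Krt86 and Bpifb1, and Krt86, a hair keratin, was at least 2.02-fold higher. Krt86 was not called without background correction, a setting under which 10 called rises were undetected in WT, against 40.

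The 16 falling genes were brighter in WT than the rising ones, with a median log2 intensity of 7.20, and all 16 were detected on every WT array. Jund, a subunit of the AP-1 transcription factor, had 5.80, 5.76 and 6.06 in shSLX1, against 7.01, 7.40, 6.92 and 7.16 in WT. It fell by 1.25 on the log2 scale (± 0.18 SE, adjusted p = 0.000987) and was the only called gene among 20 tested immediate early genes, whose median was 0.32. Gm14594, the X-linked gene named above among the neighbours of Slx, had 10.04, 9.20 and 9.97 in shSLX1, against 10.76 to 11.07 on the 4 WT arrays, and fell by 1.21 (adjusted p = 0.00643).
The other falls on the X chromosome were Dusp21, a dual specificity phosphatase, which fell by 0.81, the Golgi protein gene Yipf6, which fell by 0.72, and Wdr13, which fell by 0.66. Their adjusted p were 0.0321, 0.0482 and 0.041, and none of these 3 was called inside the set. On the autosomes the tyrosine kinase Srms and the microtubule-associated Eml5 were detected on all WT arrays and on no shSLX1 array, and were at least 1.46-fold and 1.28-fold lower. Prrt4 fell by 0.88, the histone acetyltransferase Kat7 by 0.65 and Dok7, an activator of the muscle receptor MuSK, by 0.62. Prrt4 and Dok7 were not called inside the set (adjusted p = 0.11 and 0.0939), and both lost the call under most of the alternatives tried. Yipf6, Eml5, Wdr13 and Dusp21 also lost it under most of them, and Kat7 under several. A second kept probe of Wdr13 changed by -0.51 and was not called (limma adjusted p = 0.266). A second kept probe of Kat7 changed by -0.31 and was not called (limma adjusted p = 0.578). The remaining 6 falls were probes without a gene name.

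The rises were spread over all 19 autosomes, with 191 of 10745 tested autosomal genes, or 1.78%. Chromosome 16 had the highest share, with 15 of 385 genes or 3.90%, and chromosome 5 the lowest, with 6 of 726 or 0.826%. None of 355 tested X genes and none of 16 tested Y genes rose, while 4 X genes or 1.13% fell. Of the 192 rising genes that RefSeq places, 47 had another within 500 kb. How often this holds for as many genes drawn from all those tested was not counted, so the number does not show that the rises cluster. These neighbours included gene families whose members are alike in sequence, namely the kallikreins, Chil3 and Chil4, Pira2 and Lilra6, the Serpina1 genes, Stfa1 with Csta3 and Cstdc5, Ccl4 with Ccl5, Muc2 with Muc5ac, Nat8 with Nat8f4, and Fbxw18 with Fbxw20. The promoter window of Stfa1 was 96.1% identical to that of Cstdc5 and 90.1% to that of Csta3. Rising neighbours of unlike sequence were also present, among them Tbx1 with Txnrd2, Acsl5 with Vti1a, and F10 with Tmem255b.

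Averaged over each chromosome class, the differences between the groups did not pass the test. The mean log2 ratio to WT was -0.03 for X genes, with group means of 6.64 ± 0.10 in shSLX1 and 6.67 ± 0.05 in WT (SD, n = 3 and n = 4, exact two-sided permutation p = 0.6). For Y genes it was -0.16, with 9.35 ± 0.20 in shSLX1 and 9.50 ± 0.04 in WT (exact permutation p = 0.229). For autosomal genes it was 0.01 (exact permutation p = 0.486). The smallest p that 3 against 4 arrays can give is 0.0286, and adjusted over the 3 classes each p was 0.6. Of the Y genes, Ssty1 and Ssty2 changed by -0.28 ± 0.15 and -0.16 ± 0.18 (adjusted p = 0.50 and 0.775), and the X-linked Actrt1 by -0.06 ± 0.17 (adjusted p = 0.922).

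Inside the set of shSLX1 1 and 2 and WT 3 and 4, 347 genes were called, or 2.37% of those tested, of which 298 were higher (2.03%) and 49 lower (0.334%). These arrays are part of the comparison over all arrays. All 245 rising genes were positive inside the set, with a median log2 change of 1.12, and 206 of them were called there, which is 84.1% of the rises over all arrays and 69.1% of those inside the set. Of the falls 8 were called in both, or 50% of those over all arrays and 16.3% of those inside the set. The 5 largest rises with a usual name inside the set were Myl2 (3.10), Stfa1 (3.07), Bmp7 (2.73), Chil4 (2.56) and Klk1b26 (2.52, log2). shSLX1 3 lay above every WT array for all 245 rises, but it was among the arrays that chose them, so this is no separate check.
The 92 genes that were higher only inside the set included 59 for which shSLX1 3 also lay above every WT array. The share of all genes for which this holds was not counted. Nnmt, which methylates nicotinamide, had 6.13, 6.50 and 8.12 in shSLX1, against 4.69, 4.66, 4.83 and 4.81 in WT, and was not called over all arrays (adjusted p = 0.0976). shSLX1 3 lay apart from the other shSLX1 arrays. Named here after its values were seen, it was detected on no WT array. Zcchc2, Sesn3, Dctn1 and Cracd were, with Jund, the 5 largest falls inside the set among genes with a usual name, and these 4 were not called over all arrays. Dctn1, a dynactin subunit, had 5.94, 6.50 and 7.71 in shSLX1, against 7.48, 7.16, 7.25 and 7.12 in WT, and Sesn3 had 4.70, 4.81 and 5.88 in shSLX1, against 5.48, 5.47, 5.69 and 5.76 in WT. In both genes shSLX1 3 lay above all WT arrays and the other shSLX1 arrays below them.

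**Figure D3:**
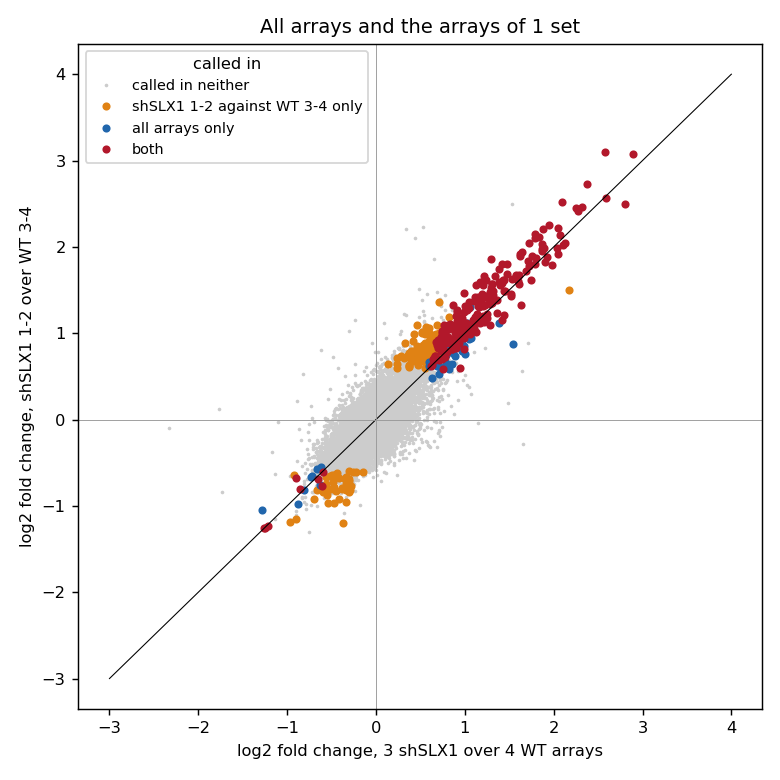
Log2 fold change of each of 14660 genes over all arrays (horizontal) and for shSLX1 1 and 2 over WT 3 and 4 (vertical), with the line of equal values. Red points mark the 214 genes called in both, of which 206 were higher and 8 lower.

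Values of the rising genes in the lines that carry the hairpin against Sly are given side by side. These comparisons share the 4 WT arrays, and since the genes were chosen for being high in shSLX1, the choice favours a lower median in another line. How much of the difference comes from the choice was not tested. The median log2 ratio of the 245 genes was 1.05 in shSLX1, 0.04 in shSLX1shSLY and 0.19 in shSLY. On the array set that shSLX1 3 shared with the shSLX1shSLY arrays, shSLX1 3 lay above all 3 shSLX1shSLY arrays for 236 of the 245 genes. shSLX1 3 had itself taken part in the choice of these genes. Stfa1 had 5.59, 5.35 and 5.39 on the shSLX1shSLY arrays and Myl2 had 5.13, 4.86 and 5.0, beside 4.94 to 5.44 and 4.67 to 5.39 on the WT arrays.
Klk1b26 was about as high in these lines as in shSLX1, with log2 ratios to WT of 2.10 in shSLX1, 2.16 in shSLX1shSLY and 2.04 in shSLY. The 7 rises of the kallikrein 1 family had medians of 1.62 in shSLX1, 0.91 in shSLX1shSLY and 1.26 in shSLY. Among them Klk1 had 1.09 in shSLX1shSLY and 1.33 in shSLY, while Klk1b27 had -0.20 and 0.09. Lcn2 had 0.23 in shSLX1shSLY and 0.99 in shSLY, and ND5 had 1.08 and 0.07. Klk1b5 had 1.79 in shSLX1, 0.91 in shSLX1shSLY and 1.5 in shSLY. Fndc3a moved the other way in the Sly-deficient lines, with 1.46 in shSLX1, -1.52 in shSLX1shSLY and -2.22 in shSLY. Chil4 had 2.59 in shSLX1, -0.51 in shSLX1shSLY and -0.90 in shSLY.

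**Figure D4:**
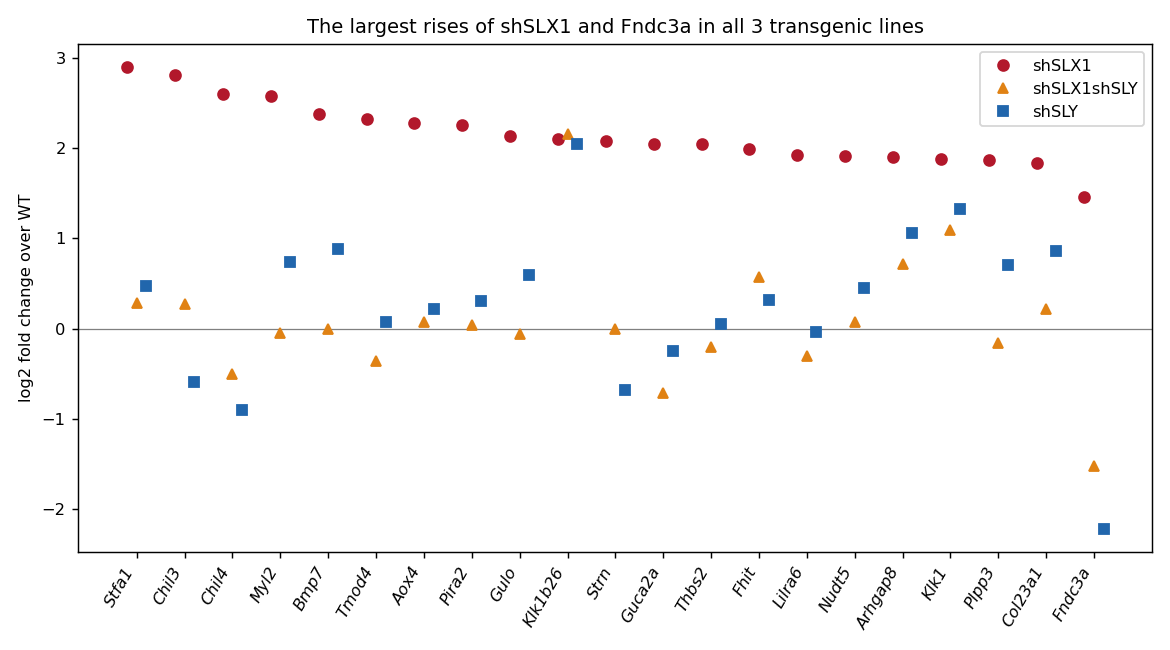
Log2 fold change over WT of the 20 largest rises of shSLX1 spermatids and of Fndc3a in the 3 transgenic lines, each over the same 4 WT arrays. Circles for shSLX1 lie between 1.46 and 2.90, and Fndc3a is at -1.52 in shSLX1shSLY and -2.22 in shSLY.

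Markers of round spermatids were bright in both groups and none was called. Of 22 tested round spermatid markers the median change was -0.08, with a summed intensity of 172654 to 180975 in shSLX1 and 177760 to 189794 in WT. The acrosomal gene Acrv1 had 13.49, 13.47 and 13.46 in shSLX1, against 13.58, 13.73, 13.51 and 13.77 in WT (adjusted p = 0.664), and Dkkl1 changed by -0.31 ± 0.14 (adjusted p = 0.38). None of 18 late spermatid and 20 meiotic markers was called, with medians of 0.09 and -0.02. Of 11 tested Sertoli cell markers 0 were called, with a median of -0.43 and a summed intensity of 1514 to 1589 in shSLX1 and 1491 to 3037 in WT. Of 54 epididymal genes on the array 24 were tested and 1 (Defb21) rose. The part of contaminating cells in the rises was not tested.
The lists of broad functions that follow held 0 to 2 calls each, beside 1.67% of all genes called higher. Whether any of these counts departs from that share was not tested. Of 39 tested cytoskeleton genes 2 rose, Actn4 and Prph, of 25 apoptosis genes 1, Tnfrsf10b, of 71 ubiquitin and proteasome genes 1, Ube2g2, and of 46 lipid metabolism genes 1, Agpat2. The call of Tnfrsf10b was lost with median scaling and without WT 3, WT 4, shSLX1 1 or shSLX1 3, among other settings. Its other kept probes were not called (0.39 and 0.10 log2, limma adjusted p = 0.425 and 0.904). Agpat2 rose 1.61-fold, its call was lost with median scaling and without any single array other than WT 2, and its second kept probe was not called (0.60 log2, adjusted p = 0.224). None of 21 glycolysis, 60 cytosolic ribosomal protein, 66 heat shock and chaperone, 46 replication-dependent histone and 9 Speer genes was called.

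**Figure D5:**
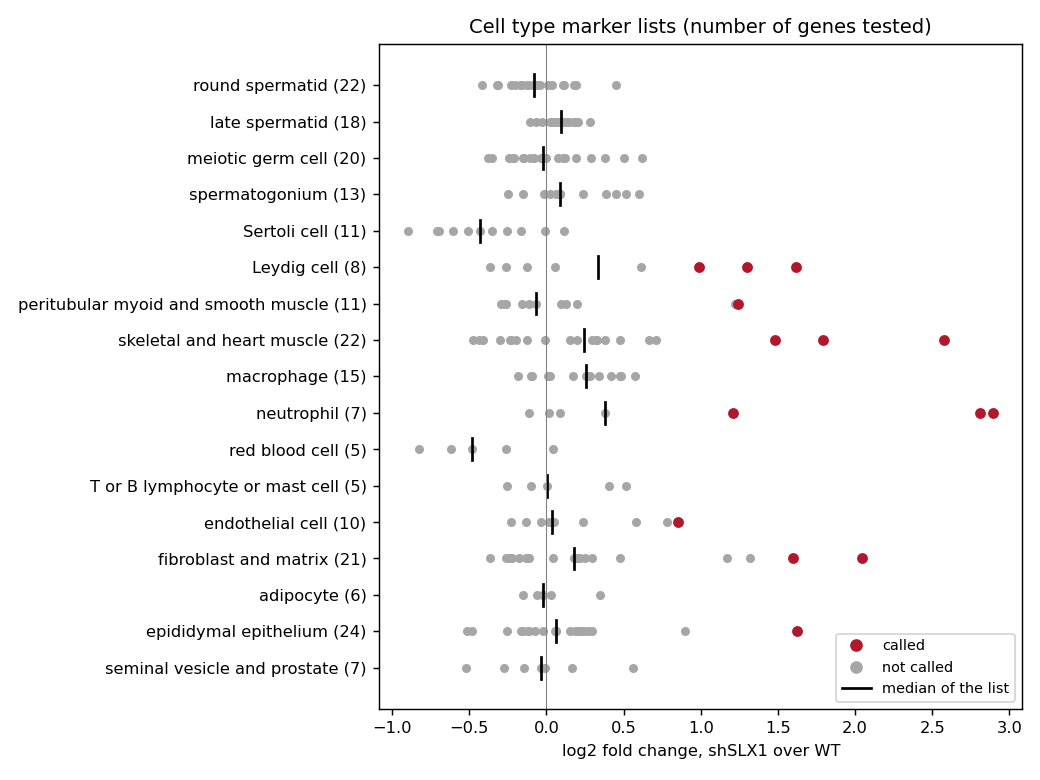
Log2 fold change of shSLX1 over WT for each tested marker of 17 cell types, with called genes in red, others in grey and the list median as a bar. Round spermatid markers centre on -0.08 with no call, and the called genes of the neutrophil list are Stfa1, Chil3 and Lcn2.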

How the data were processed

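The authors deposited bead summary intensities per probe on the linear scale, without normalization between arrays or background subtraction, and a detection p-value for each probe and array. A table of normalized signal values deposited by the authors, linear and with a median of 77.4 in each column, was used as an alternative. The submitters' processing notes name GenomeStudio 2011.1. neqc (limma 3.58.1, R 4.3.3, offset 16) corrected the intensities for background, applied quantile normalization and took log2. Of 45281 probes 20250 were kept, each detected (p under 0.05) on 3 or more of 13 arrays, and the probe with the highest mean represented its gene. Platform annotation named 34885 probes with 1 gene, 18 with several and 10378 with none, and 34807 named probes matched RefSeq.

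The limma fit held a mean for each of the 4 groups across the 13 arrays (9 residual and 5.64 prior degrees of freedom) with two-sided tests and Benjamini-Hochberg adjustment. The set comparison used 1 mean per group and array set, from Ward clustering of the signals of undetected probes into 3 sets, which correlated at 0.441 to 0.655 within and 0.286 to 0.553 between sets. The fit was tested on simulated data. Genes named are targets and genes the study names, the 20 largest rises and 10 largest falls (9 existed) that do not overlap, up to 4 called genes per list, the 5 brightest rises undetected in WT, the 5 largest changes each way inside the set, and genes of small counts. Further genes illustrate the role classes and were chosen after their values were seen. Members and lists were chosen with earlier results of these data known. Promoter windows came from RefSeq and were aligned pairwise with free end gaps. The number of arrays limits precision. Figures used matplotlib 3.10.9 under Python 3.11.15.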

Additional observations from a re-analysis of the deposited data

Results flagged for a closer look

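Of 66 groups of 4 WT values checked with Dixon's test, 5 held an array far from the others, where chance flags about 1 in 20. WT 2 was high for Arhgap8 (gap of 0.912 of the range), Col23a1 (0.898), Bpifb1 (0.895) and Klk1b21 (0.878), and WT 3 was low for Gulo (0.869).

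For 35 of 63 named genes the change of shSLX1 over WT differed from that of shSLX1shSLY over shSLY by an interaction term (limma, Benjamini-Hochberg adjustment over all genes). The share of all tested genes with such an interaction was not counted, so the 35 cannot be set against it. The shSLX1 and shSLX1shSLY arrays lay mostly in different array sets, and the part of the set in these differences was not tested. The interaction, the second change minus the first on the log2 scale, was negative for 34 genes. Most of these genes were named for a large rise in shSLX1 over WT, which enters with a minus sign, so the choice of genes favoured a negative value. Thbs2, Myl3, Myh11, Hgfac, Krt86 and Bpifb1 were detected on no WT array, and Thbs2 and Myh11 on no shSLX1shSLY array either, so their values rest partly on signals not above background and are no exact differences. Among immune and secreted proteins it was -3.09 for Stfa1, -2.20 for Chil4, -2.51 for Pira2, -2.19 for Lilra6, -1.97 for Lcn2, -2.52 for Guca2a, -1.20 for Bpifb1 and -1.76 for Defb21. Among muscle, keratin and cytoskeletal genes it was -3.36 for Myl2, -2.75 for Tmod4, -1.66 for Myl3, -1.74 for Sln, -1.48 for Myh11, -1.04 for Krt86, -2.39 for Actn4, -1.39 for Strn and -2.24 for Arhgap8. Kallikreins had -1.98 for Klk1b26, -2.38 for Klk1b5, -2.11 for Klk1, -1.91 for Klk1b27 and -1.63 for Klk1b21. Liver, metabolic and matrix genes had -2.78 for Gulo, -2.02 for Ambp, -1.91 for Hgfac, -1.65 for Cyp2a12, -2.41 for Aox4, -2.29 for Nudt5, -1.73 for Fhit, -2.73 for Plpp3, -2.30 for Thbs2, -2.48 for Col23a1 and -2.30 for Col4a2. Bmp7 had -3.26, and Jund had 1.19.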

How the results depend on the processing

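Counts of called genes changed with the background correction, the scaling and the detection filter. Without background correction 159 genes were called (153 higher, 6 lower, 10 of the higher undetected in WT), with an offset of 50 it was 164 (157, 7 and 12), with the authors' normalized values 156 (150, 6 and 9), and with median scaling 110 (90 higher, 22 of them undetected in WT). A detection p under 0.01 on all arrays left 118 (108, 10 and 0), fewer genes being tested. Genes called lower numbered 10 without a detection filter, 10 with only the WT and shSLX1 arrays, 40 with a block for the array set, 56 under array quality weights and 49 inside the set, where 77 rises were undetected on the WT arrays. The cause was not tested.

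Replicate numbers were used as a replicate block in another fit, which called 182 genes with 10 lower, and 177 of the 261 genes remained called. Same-numbered arrays had correlations of deviations of -0.05, -0.19 and -0.17. Same-numbered shSLX1 and WT arrays lay in different array sets, so these values cannot decide whether the numbers pair the samples. The labels do not say. Leaving out 1 array at a time gave 183 to 244 called genes, 165 to 230 higher, 6 to 38 lower and 23 to 46 undetected in WT. The lower count was 6 without WT 1, 9 without WT 2 or WT 4 and 38 without shSLX1 3, and 23 rises were undetected in WT without shSLX1 3. The mean ratio of X genes ranged over -0.08 to 0.02, and that of Y genes over -0.26 to -0.06. With a detection p under 0.01, 67 rises were undetected in WT. The 43 named genes called higher were positive under every setting. Over all named genes and settings, 1011 values stayed on their side of the threshold, called or not, 149 lost a call and 11 gained one. Ssty2, never called over all arrays at -0.16, had 0.02 inside the set and 0.05 without shSLX1 3. Precision is limited by 3 and 4 arrays and by signals near background.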
